A study of Mus musculus with 16 samples.

Results

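The genes described here encode the proteins that hepatocytes secrete into the blood plasma. A list of 37 of them was taken by gene symbol, and each symbol was read from its probe set with the highest mean signal among probe sets paired with 1 symbol only. Of the 37 genes, 35 had such a probe set, out of 19934 symbols with one on the array. Cpb2 and C3 were not analysed here. 33 genes passed the filter on dim probe sets and were tested among 16258 genes, while F9 and Hrg were too dim and are given by their levels only. Because the filter asks for signal on a few arrays, a gene bright in 1 stage alone passes it, so the 33 genes are not the whole list.

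Plasma proteins are the main secreted products of the liver parenchyma. Hepatoblasts begin to make albumin and alpha-fetoprotein as soon as the liver bud forms, and hepatocytes add clotting factors, protease inhibitors, apolipoproteins and complement as they mature, under liver-enriched transcription factors of the HNF1, HNF4, C/EBP and FOXA families. In the midgestation embryo these cells share the organ with blood-forming cells, which make up most of a fetal liver cell suspension.

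RNA came from single-cell suspensions of mouse fetal liver at E12.5 and E14.5, and 16 arrays measured 4 genotypes at each stage: wild type (WT), ERG Tg, which carries an ERG transgene (ERG), WT/GATA1s, which carries the GATA1s knock-in allele (GATA1s), and both together (ERG/GATA1s). Each of the 8 groups held 1 array labelled female and 1 labelled male, and where 2 values are given for a group below, the array labelled female comes first. GATA1s is the short isoform of GATA1, the X-linked transcription factor of red cells and megakaryocytes, and ERG belongs to the ETS family of transcription factors and acts in blood stem cells and endothelium. Neither the transgene's promoter, the number of GATA1s copies in females, nor the number of embryos behind a sample is given in the sources used here, and a p-value here therefore rests on the scatter of these samples alone, which may be technical. "GATA1s carriers" below are the GATA1s and ERG/GATA1s arrays of a stage and "ERG carriers" the ERG and ERG/GATA1s arrays, so each contrast sets 4 arrays against 4 and the contrasts of a stage reuse the same arrays.

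Signal is the deposited log2 value, which ran from 1.96 to 13.32 with array medians between 4.79 and 4.94, and the number of arrays limits the precision. Erg signal lay between 5.32 and 6.01 and Gata1 signal between 9.22 and 10.02 on the 16 arrays, and the probe sequences were not held, so neither checked a label. Xist and 3 Y-linked genes opposed the labelled sex on 3 arrays: the E12.5 GATA1s and E12.5 ERG/GATA1s arrays labelled male and, labelled female, the E14.5 ERG/GATA1s array. The E12.5 WT and E14.5 ERG arrays labelled male carried signal of both kinds. All 4 GATA1s carrier arrays at E12.5 therefore had female markers, and results at that stage are also given for arrays with female markers only. At E14.5 the GATA1s array labelled male and both ERG/GATA1s arrays had male markers (Xist 3.97, 4.22 and 4.19). Carriers thus differed between the stages in the sex that the markers gave. Within a group, the 2 arrays lay farthest apart over the plasma protein genes in E14.5 WT, where the array labelled male was higher for 33 of 35 genes with a mean absolute gap of 0.73, and in E12.5 ERG, where it was lower for 33 of 35 with a mean gap of 0.63. Red cell markers averaged 9.40 to 10.81 over the 16 arrays and markers of exocrine pancreas and gut 3.97 to 4.59, close to the dim level of 3.74.

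The stretch just upstream of a gene's start is where liver-enriched factors bind many plasma protein promoters, so the 250 bases before the RefSeq start of 6 genes are printed here, 5′ to 3′ on the strand of the gene, in build GRCm38.p6. They were picked with the values known: Alb and Afp are neighbours, Fgb stands for the 3 fibrinogen genes, Serpina1c had the largest fitted rise between stages, Serpind1 the largest fall in GATA1s carriers at E12.5, and F10 the one rise there. Capitals mark matches, on either strand, to 7 short spellings of sites for liver and blood factors. The HNF1 half-site was searched as GTTAAT. The letters searched for HNF4 were CAAAGTC. Sites of C/EBP proteins were searched as TTGCNNAA. The forkhead factors FOXA were searched with the spelling TGTTTAC. Their variant spelling, which differs in the sixth base only, was TGTTTGC. Sites of GATA factors were searched with AGATAA. The variant of that spelling, which shares its last 5 letters, was TGATAA. A match on the other strand appears as the reverse complement.
Alb: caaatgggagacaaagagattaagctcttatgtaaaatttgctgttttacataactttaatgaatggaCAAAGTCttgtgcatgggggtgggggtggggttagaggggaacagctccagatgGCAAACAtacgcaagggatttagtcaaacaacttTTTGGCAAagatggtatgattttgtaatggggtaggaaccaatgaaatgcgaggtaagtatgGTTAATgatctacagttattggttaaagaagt
Afp: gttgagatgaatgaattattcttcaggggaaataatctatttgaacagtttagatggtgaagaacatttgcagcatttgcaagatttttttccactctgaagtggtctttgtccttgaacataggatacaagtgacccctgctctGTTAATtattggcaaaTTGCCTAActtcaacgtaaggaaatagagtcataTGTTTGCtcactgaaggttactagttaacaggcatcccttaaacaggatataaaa
Fgb: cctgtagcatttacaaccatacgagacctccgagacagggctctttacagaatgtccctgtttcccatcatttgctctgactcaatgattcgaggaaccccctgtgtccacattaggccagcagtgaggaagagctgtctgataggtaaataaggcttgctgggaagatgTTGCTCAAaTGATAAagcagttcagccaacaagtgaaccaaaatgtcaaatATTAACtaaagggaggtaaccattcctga
Serpina1c: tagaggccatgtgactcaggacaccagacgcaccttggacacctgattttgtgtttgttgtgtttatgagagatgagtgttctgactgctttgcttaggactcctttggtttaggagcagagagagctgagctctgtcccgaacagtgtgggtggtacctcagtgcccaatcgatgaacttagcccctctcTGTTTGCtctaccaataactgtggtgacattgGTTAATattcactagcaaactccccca
Serpind1: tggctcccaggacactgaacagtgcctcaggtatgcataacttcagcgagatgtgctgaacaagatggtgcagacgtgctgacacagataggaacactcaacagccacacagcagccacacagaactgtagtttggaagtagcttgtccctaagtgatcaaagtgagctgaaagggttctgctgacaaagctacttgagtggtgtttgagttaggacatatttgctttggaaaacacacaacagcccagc
F10: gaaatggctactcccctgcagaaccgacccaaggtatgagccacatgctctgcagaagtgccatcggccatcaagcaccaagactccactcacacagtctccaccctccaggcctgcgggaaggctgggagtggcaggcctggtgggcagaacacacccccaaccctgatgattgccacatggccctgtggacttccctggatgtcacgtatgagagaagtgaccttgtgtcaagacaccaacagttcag
These windows lie at chr5:90460620-90460869, plus strand (Alb), chr5:90490464-90490713, plus strand (Afp), chr3:83049864-83050113, minus strand (Fgb), chr12:103904951-103905200, minus strand (Serpina1c), chr16:17331121-17331370, plus strand (Serpind1) and chr8:13037058-13037307, plus strand (F10). The Alb window held 4 matches, Afp and Fgb 3 each, Serpina1c 2, and the Serpind1 and F10 windows 0, which says only that these letters are not in these windows.

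RefSeq promoter sequences matched 30 of the 35 measured genes, with 32 windows in all. The C/EBP spelling was found in 12 of the 32 windows (37.5%, against 9.56% of all 32851 promoter windows of the same length), and the HNF1 half-site in 8 (25%, against 6.43%). The FOXA variant was in 8 windows (25%, against 4.3%), the first FOXA spelling in 4 (12.5%, against 3.17%) and the HNF4 spelling in 4 (12.5%, against 3.84%). The first GATA spelling was in 4 windows (12.5%, against 9.99%), those of Itih2, Itih4, Serpinf1 and Serpinf2. Its variant was in 3 windows (9.38%, against 7.94%), those of Ahsg, Fgb and Itih2. A match describes the letters and is not evidence of binding. In the RefSeq gene order, 7 pairs of these genes have no protein-coding gene between them: Alb and Afp, Fgg and Fga, Fga and Fgb, F7 and F10, Itih4 and Itih3, Itih3 and Itih1, and Serpinf1 and Serpinf2.

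The first comparison was between stages. All 33 tested plasma protein genes were higher at E14.5 than at E12.5 in the mean of the 4 genotypes, by limma at an adjusted p under 0.05, where 29% of all genes tested were called higher. The median change was 1.96 on the log2 scale and the range 0.68 (F7) to 3.90 (Serpina1c), beside a median of -0.03 over all genes tested. Every E14.5 array was above every E12.5 array for 29 of the 35 measured genes (8.32% of all genes), and the ranges of F7, F9, F10, Serpinf1, Serpinf2 and Hrg overlapped. In a bulk suspension, fewer hepatocytes and less of these messages per hepatocyte cannot be told apart.

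**Figure D1:**
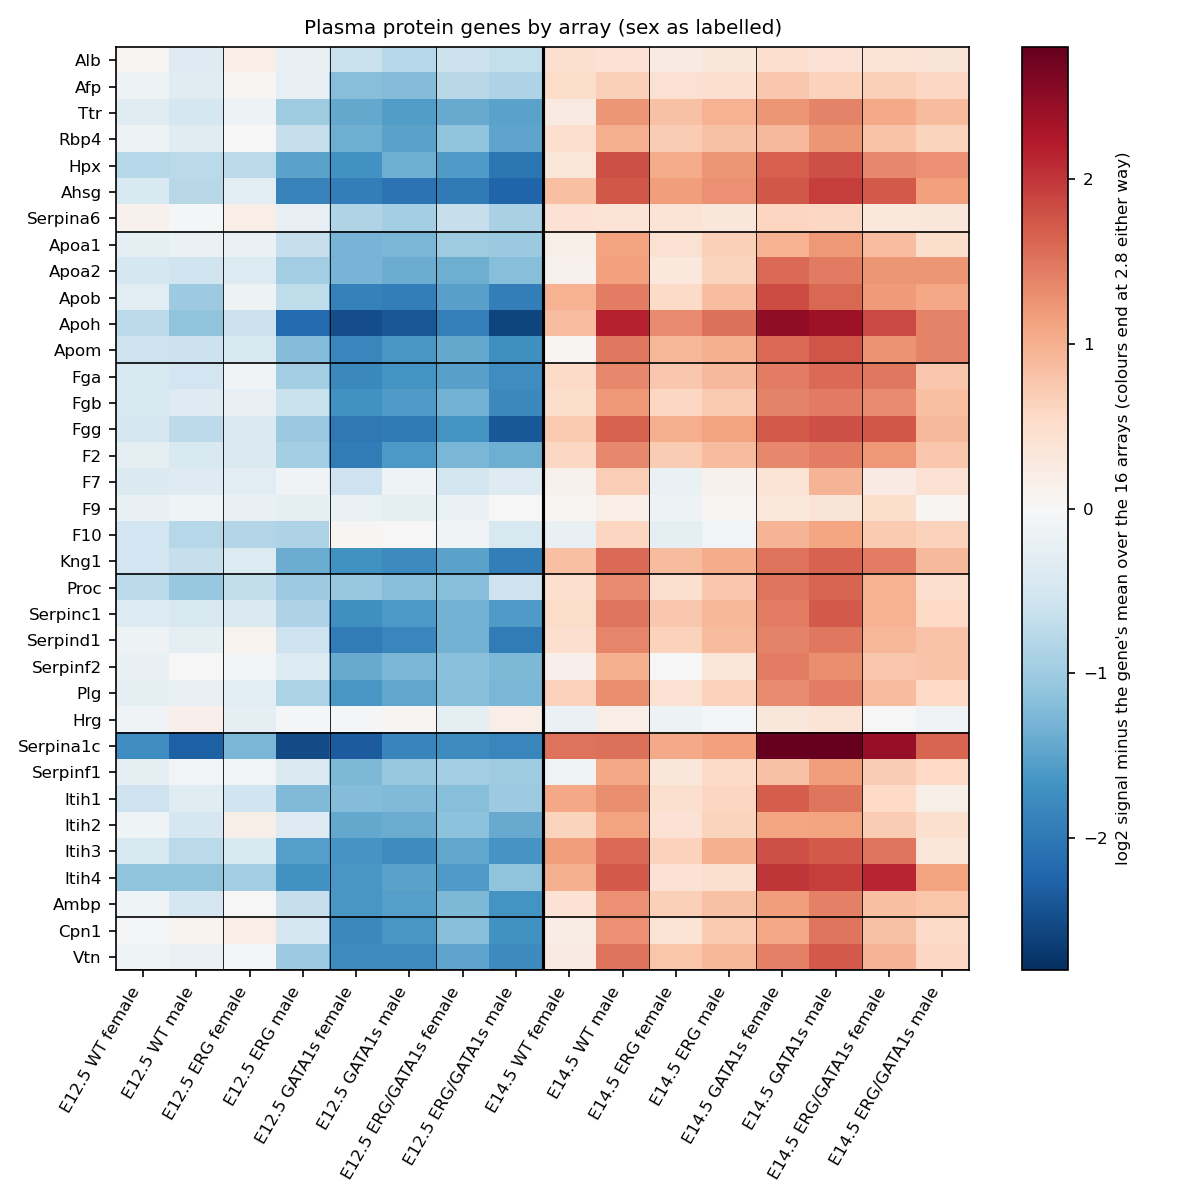
Signal of the 35 measured plasma protein genes (vertical axis, grouped by role between the black lines) on the 16 arrays (horizontal axis, stage, genotype and labelled sex). Colour is log2 signal minus the gene's mean over all arrays, with blue below and red above that mean. The E12.5 GATA1s and ERG/GATA1s arrays are the bluest columns, and the E14.5 WT array labelled female is paler than the one labelled male.

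Serpina1c, 1 of several near-identical antitrypsin genes of the mouse, had the largest fitted rise of all genes tested, from a level near background. Its signal was 4.14 and 3.58 (WT), 4.59 and 3.36 (ERG), 3.55 and 4.02 (GATA1s) and 4.11 and 4.04 (ERG/GATA1s) at E12.5. The later arrays read 7.40 and 7.41 (WT), 6.94 and 7.03 (ERG), 8.78 and 9.20 (GATA1s) and 8.32 and 7.51 (ERG/GATA1s), so each array of the later stage was above each of the earlier one. The fitted rise was 3.90 ± 0.16 (SE, adjusted p = 2.53e-09). Of the 8 arrays at E12.5, 3 were under the dim level of 3.74, so the size of the rise, and its rank among genes, are uncertain and no fold is given. Its near-identical copies may share probes with it, so the value is uncertain as to which copy it measures. Apoh, a phospholipid-binding plasma glycoprotein, ran from 4.80 to 6.77 (median 5.33) at E12.5 and from 8.23 to 9.86 (median 9.06) at E14.5, a rise of 3.49 ± 0.21 that left the stages apart. Ahsg, the fetal carrier of calcium phosphate known as fetuin-A, rose from 7.32 to 9.26 (median 7.66) to 10.40 to 11.49 (median 11.07), by 2.90 ± 0.19. Itih4, a heavy chain of the inter-alpha-inhibitor family, rose by 2.69 ± 0.15 and Fgg, the gamma chain of fibrinogen, by 2.67 ± 0.15.

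Alb and Afp, early markers of the lineage, were among those that rose least. With Serpina6 they were also the brightest measured genes, with mean signals of 11.74 (Alb), 11.47 (Serpina6) and 11.26 (Afp). The part of that brightness in the size of their changes was not tested. Alb, the main carrier protein of plasma, was 10.95 to 11.92 (median 11.27) at E12.5 and 11.98 to 12.22 (median 12.13) at E14.5, and rose by 0.76 ± 0.07 (1.69-fold, adjusted p = 1.52e-06). Afp, its fetal counterpart, rose by 1.18 ± 0.06 and Serpina6, the corticosteroid-binding globulin, by 0.83 ± 0.07. Among the dimmer genes, F7, the factor that starts clotting with tissue factor, rose by 0.68 ± 0.08 from a mean of 4.41 to one of 5.09. F9 was 2.91 to 3.18 at E12.5 and 3.03 to 3.67 at E14.5, and Hrg was 2.92 to 3.39 at E12.5 and 3.01 to 3.59 at E14.5, both under the dim level on all 16 arrays.

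The other members filled the range between these. Among transport proteins, Hpx, which binds heme, rose by 2.63 ± 0.17, Ttr, a carrier of thyroid hormone, by 1.96 ± 0.14 and Rbp4, the carrier of retinol, by 1.65 ± 0.11. Among apolipoproteins the values were 2.38 for Apob, 2.36 for Apom, 1.92 for Apoa2 and 1.48 for Apoa1. The median over the 7 tested clotting factors was 2.07, over the 5 genes of clotting control and fibrinolysis 1.90, and over the 7 protease inhibitors and matrix stabilisers 1.84. Genes of immediate early and heat shock response, which dissociation of tissue is known to raise, went the other way: 10 of 11 were lower at E14.5, with array means of 6.89 to 7.89 at E12.5 and 5.38 to 7.10 at E14.5, and their part in the result was not tested.

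The rise was present with and without the GATA1s allele. Among non-carriers all 33 genes rose, with a median of 1.21 (21% of all genes were called higher), and among carriers all 33 rose, with a median of 2.70 (22.3% of all genes). Leaving out 1 array gave 29 to 33 calls in non-carriers: 29 after dropping the male-labelled E12.5 ERG array (median 1.07, 15.7% of all genes) and 31 after dropping the male-labelled E14.5 WT array (median 0.98, 17.7%). In non-carriers the smallest rise was 0.36 ± 0.10 (Serpina6, adjusted p = 0.01) and the largest 3.28 ± 0.23 (Serpina1c). The smallest in carriers was 0.89 ± 0.11 (F7) and the largest 4.52 ± 0.23 (Serpina1c). Every array of E14.5 carriers lay above every array of E12.5 carriers for 34 of 35 genes, against 19.5% of all genes, and Hrg was the exception. In non-carriers the stages were apart for 30 of 35, against 18.1% of all genes. Without the 3 arrays with sex markers against their label, all 33 genes were again called higher in each of these comparisons.

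**Figure D2:**
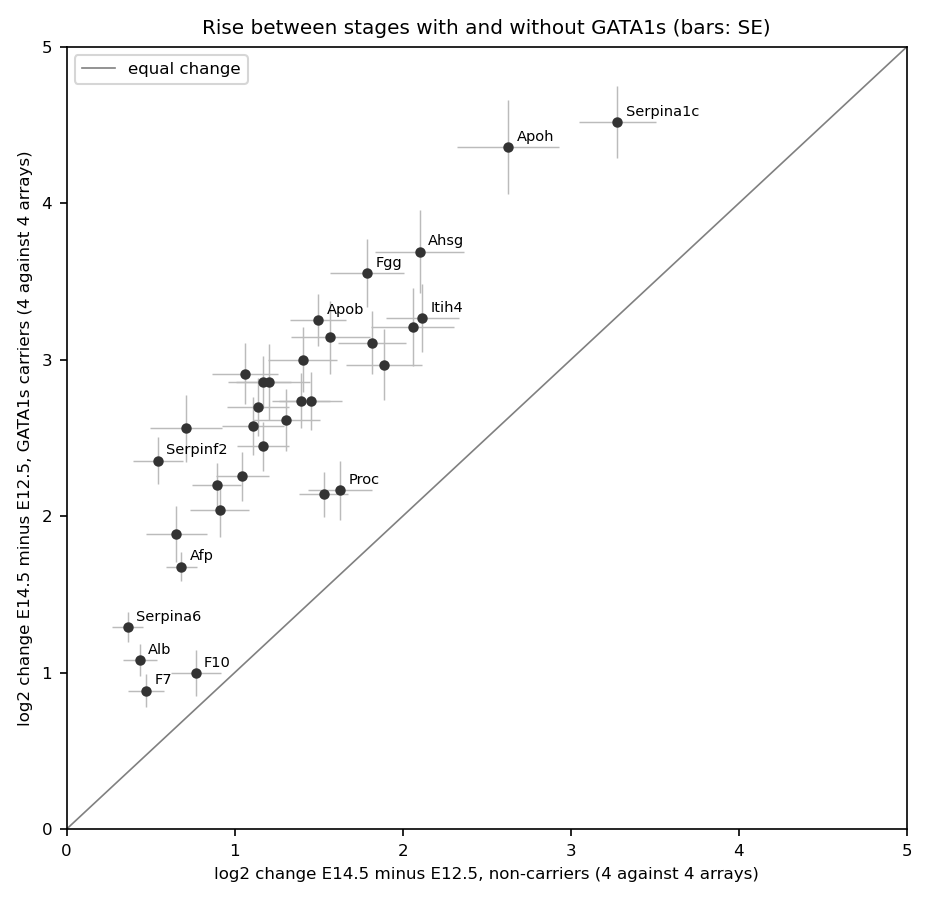
Log2 change from E12.5 to E14.5 of the 33 tested plasma protein genes in non-carriers of GATA1s (horizontal axis) and in GATA1s carriers (vertical axis), 4 arrays against 4 each, with bars for 1 SE. All 33 points lie above the line of equal change; F10, F7 and Proc lie nearest to it.

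The GATA1s allele was compared with its absence at E12.5. Plasma protein genes were lower in the carriers: 26 of 33 fell, 1 rose and 6 did not pass (limma, adjusted p under 0.05), where 3.48% of all genes tested were called lower and 2.87% higher. The median change was -0.98, beside 0.005 over all genes tested, and 31 of 33 changes were negative. Array ranges did not overlap for 25 of the 35 measured genes, with carriers below in 24 (3.82% of all genes) and above in 1 (4.98%). By role, 6 of 7 transport proteins, 5 of 5 apolipoproteins, 5 of 7 clotting factors, 4 of 5 genes of clotting control, 4 of 7 protease inhibitors and matrix stabilisers, and both tested genes of complement and adhesion fell.

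The largest fall was that of Serpind1, which encodes heparin cofactor II, an inhibitor of thrombin. Its signal at E12.5 was 8.48 and 8.35 (WT), 8.71 and 8.05 (ERG), 6.67 and 6.80 (GATA1s) and 7.30 and 6.67 (ERG/GATA1s), so every carrier array was below every non-carrier array. The difference was -1.54 ± 0.20 (SE), a 2.9-fold lower level (adjusted p = 0.00106). Cpn1, the catalytic subunit of carboxypeptidase N, which trims complement peptides and kinins, was 7.97 and 8.09 (WT), 8.19 and 7.53 (ERG), 6.19 and 6.37 (GATA1s) and 6.80 and 6.31 (ERG/GATA1s). The ERG/GATA1s array labelled female was the highest of the carriers and still below all non-carriers, and the fall was 1.53 ± 0.22 (2.88-fold, adjusted p = 0.0017). Vtn, the adhesion protein vitronectin, was 8.99 and 8.93 (WT), 9.06 and 8.10 (ERG), 7.35 and 7.36 (GATA1s) and 7.64 and 7.33 (ERG/GATA1s). Its non-carriers were spread more widely than its carriers, with the ERG array labelled male the lowest of them, and it fell by 1.35 ± 0.24 (adjusted p = 0.00602).

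Fibrinogen, the precursor of the fibrin clot, is built from 3 chains encoded by adjacent genes, and all 3 genes fell. Fgg signal was 8.17 and 7.92 (WT), 8.24 and 7.61 (ERG), 6.64 and 6.66 (GATA1s) and 6.96 and 6.26 (ERG/GATA1s), with carriers and non-carriers apart. Fgg was lower by 2.56-fold (-1.35 ± 0.22, adjusted p = 0.00361), Fgb by 2.28-fold (-1.19 ± 0.16) and Fga by 2.26-fold (-1.18 ± 0.21). Prothrombin (F2) fell by 1.04 ± 0.17 and kininogen (Kng1), the source of bradykinin, by 0.998 ± 0.20 (adjusted p = 0.0115). Kng1 was 8.75 and 8.64 (WT), 8.90 and 7.90 (ERG), 7.58 and 7.49 (GATA1s) and 7.79 and 7.34 (ERG/GATA1s), and the ERG array labelled male, at 7.90, lay just above the highest carrier. The Kng1 call was lost without the ERG array labelled female, the GATA1s array labelled female or the ERG/GATA1s array labelled male, with an adjusted p of up to 0.0656.

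F10, the factor that cleaves prothrombin, went the other way. Its signal was 6.71 and 6.45 (WT), 6.41 and 6.38 (ERG), 7.28 and 7.22 (GATA1s) and 7.13 and 6.80 (ERG/GATA1s), so each carrier was above each non-carrier. The rise was 0.62 ± 0.15 (adjusted p = 0.0254), and it did not pass after leaving out any of 5 arrays in turn (adjusted p up to 0.125). F7, the neighbour of F10 in the genome, differed by -0.10 ± 0.11 (adjusted p = 0.585) and did not pass. Serpina1c differed by 0.01 ± 0.23 (adjusted p = 0.979), with carriers at 3.55 to 4.11 inside the non-carriers' 3.36 to 4.59, near the dim level.

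The median fall was 0.94 over the 5 apolipoproteins and 0.85 over the 7 transport proteins. Apob, the structural protein of low-density lipoprotein, was 8.01 and 7.31 (WT), 8.20 and 7.62 (ERG), 6.44 and 6.39 (GATA1s) and 6.81 and 6.39 (ERG/GATA1s) and fell by 1.28 ± 0.17 (2.42-fold, adjusted p = 0.0012), with no overlap. Apoa1, the main protein of high-density lipoprotein, was 10.21 and 10.29 (WT), 10.30 and 9.84 (ERG), 9.17 and 9.20 (GATA1s) and 9.48 and 9.43 (ERG/GATA1s), and all carriers lay below all non-carriers. Its fall was 0.84 ± 0.18 (adjusted p = 0.0131), and without the ERG array labelled female, the GATA1s array labelled female or the ERG/GATA1s array labelled male the adjusted p reached 0.0746. Alb was 11.79 and 11.39 (WT), 11.92 and 11.54 (ERG), 11.12 and 10.95 (GATA1s) and 11.14 and 11.07 (ERG/GATA1s), with the carriers apart from and below the non-carriers. Its fall of 0.59 ± 0.10 was the smallest among the transport proteins (1.5-fold, adjusted p = 0.00465). Afp fell by 0.85 ± 0.09, Serpina6 by 0.85 ± 0.10, Rbp4 by 1.07 ± 0.16 and Ahsg by 1.21 ± 0.27, which failed in 6 of the fits that dropped 1 array (adjusted p up to 0.0841), while Hpx, at -0.73 ± 0.25, did not pass (adjusted p = 0.0951). Ttr fell by 0.98 ± 0.20. Among the other apolipoproteins, Apom, which carries sphingosine phosphate, fell by 0.94 ± 0.23, Apoh by 1.18 ± 0.30 and Apoa2 by 0.72 ± 0.18, and all 3 did not pass after leaving out any of 6 arrays in turn (adjusted p up to 0.146, 0.162 and 0.164).

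Inhibitors of the fibrinolytic and clotting enzymes were lower as well. Serpinf2, the antiplasmin, was 9.50 and 9.73 (WT), 9.63 and 9.33 (ERG), 8.31 and 8.43 (GATA1s) and 8.54 and 8.47 (ERG/GATA1s), with every carrier below every non-carrier. It fell by 1.11 ± 0.15 (adjusted p = 0.00148), its neighbour Serpinf1, pigment epithelium-derived factor, by 0.87 ± 0.18, and antithrombin (Serpinc1) by 1.03 ± 0.19. Plasminogen (Plg), the precursor of plasmin, fell by 0.98 ± 0.16. Proc, the anticoagulant protein C, differed by -0.14 ± 0.19 and did not pass (adjusted p = 0.685).

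The inter-alpha-inhibitor heavy chains, most of which bind hyaluronan in the extracellular matrix, gave a call for some genes and not for others. Itih2 was 9.78 and 9.44 (WT), 10.08 and 9.55 (ERG), 8.48 and 8.52 (GATA1s) and 8.75 and 8.49 (ERG/GATA1s), without overlap, and fell by 1.15 ± 0.14 (adjusted p = 0.00106). Ambp, whose product is split into bikunin, the light chain of the complex, and a separate plasma protein, fell by 1.21 ± 0.18. The 3 adjacent genes Itih4, Itih3 and Itih1 gave -0.24 ± 0.22, -0.84 ± 0.23 and -0.49 ± 0.14, and of these Itih3 alone passed (adjusted p = 0.0416), a call lost without any of 8 arrays (adjusted p up to 0.19). Whether the genes differ from each other was not tested.

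Leaving out any 1 of the 16 arrays gave between 17 and 29 calls, while 317 to 4292 of all 16258 genes were called in either direction. The median over the 33 genes ran from -1.19 to -0.78. Of the 27 calls, 17 were kept in each case and 10 lost in some. The count of 17 came without the E12.5 ERG or the E12.5 GATA1s array labelled female. Besides the 8 given above, the lost calls were those of Ttr (adjusted p up to 0.0572) and Serpinf1 (up to 0.0707). Without the 3 arrays with sex markers against their label, limma called 0 of the 33 genes and 0 of all genes, although the median was still -0.90 and 28 of the 33 (2318 of all genes) had an unadjusted p under 0.05. The E12.5 ERG/GATA1s arrays correlate least with each other. A fit without that group set GATA1s against WT only, so the ERG arrays also left the contrast. In it 15 genes were called and the median was -1.14. Among arrays with female markers only (4 carriers and the WT and ERG arrays labelled female), all carriers lay below both non-carriers for 30 of 35 genes, with a median difference of -1.14, beside 19.5% of all genes and a median of 0.025 over them.

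**Figure D3:**
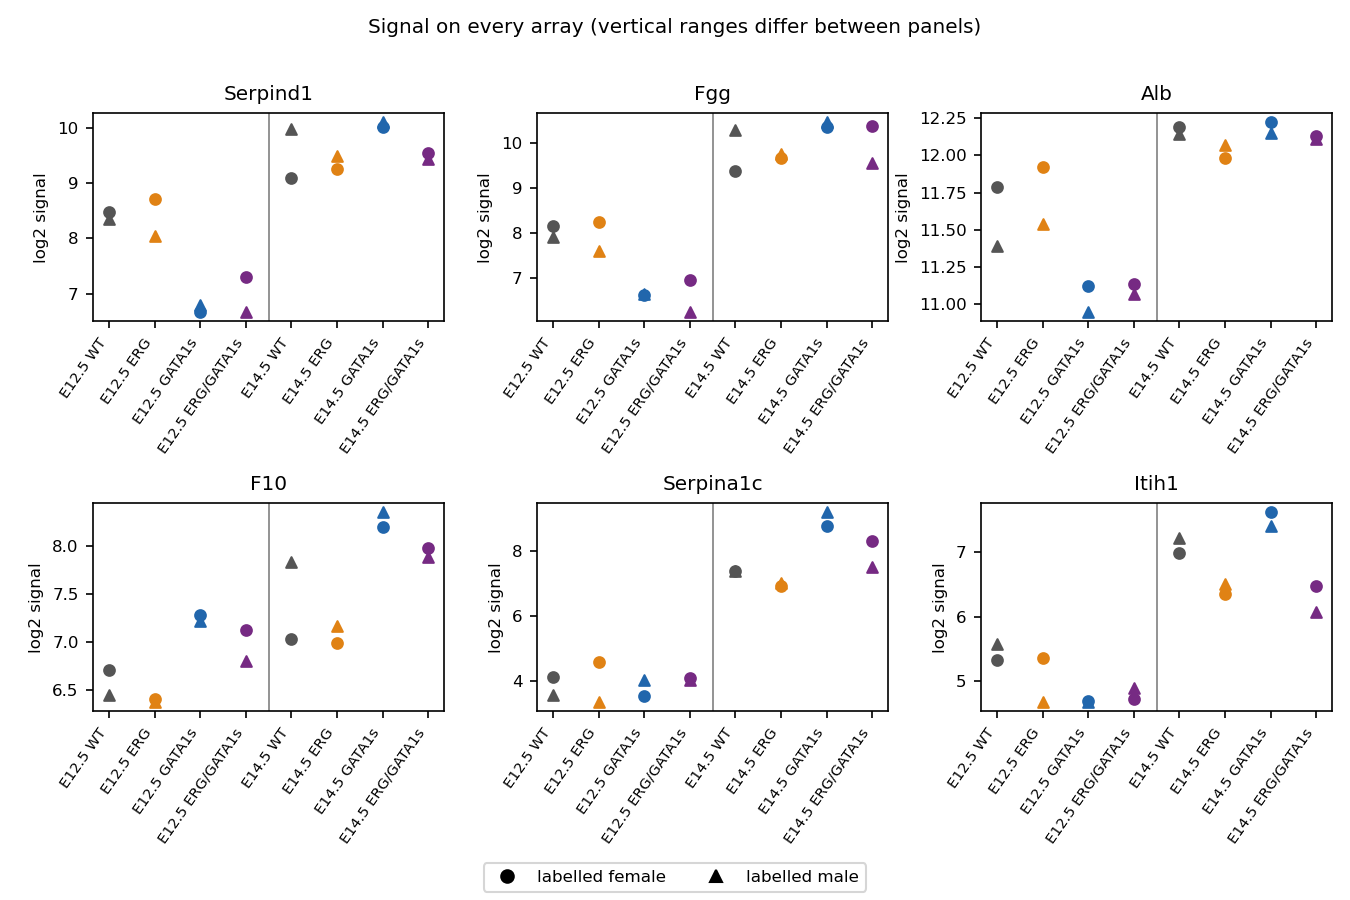
Log2 signal of 6 plasma protein genes on each of the 16 arrays, by stage and genotype, with circles for arrays labelled female and triangles for arrays labelled male. At E12.5 the GATA1s and ERG/GATA1s arrays of Serpind1, Fgg and Alb lie below all others, those of F10 lie above, and at E14.5 the ERG and ERG/GATA1s arrays of Itih1 lie below the others.

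Genes of other lists were read beside these. Of 58 other plasma protein genes tested, 14 fell and 1 rose in GATA1s carriers at E12.5, with a median of -0.15. The falls included transferrin (Trf, -1.01 ± 0.15), the complement inhibitor Serping1 (-1.25 ± 0.22), the lectin pathway protease Masp1 (-0.94 ± 0.17) and Habp2 (-1.15 ± 0.21), and the rise, named after its value was seen, was that of Ecm1 (0.83 ± 0.20). Of 16 hepatocyte transcription factors tested, 5 fell and 0 rose, among them Hnf4a (-0.89 ± 0.15, adjusted p = 0.00408), Onecut2 (-0.69 ± 0.11), Prox1 (-0.72 ± 0.15) and Foxa3 (-0.82 ± 0.19). Of 22 hepatic metabolic enzymes and transporters, Gys2 (-1.05 ± 0.21) and Hgd (-0.85 ± 0.21) fell and 20 did not pass. The median over the 22 was 0.07, and 14 of the 22 changes were positive. Dlk1, a hepatoblast marker, fell by 0.63 ± 0.12, and the other 10 genes of that list did not pass. The median of the hepatoblast list was -0.01, with 5 changes positive and 6 negative.

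Markers of other cells moved at the same stage. Megakaryocyte and platelet genes were higher in the carriers in 10 of 11, with array means of 7.41 to 8.04 in non-carriers and 8.26 to 9.06 in carriers. None of 12 red cell genes passed limma's test, with array means of 9.71 to 10.32 in non-carriers and 9.73 to 10.09 in carriers. Of these 12 changes, 11 were negative, with a median of -0.27. Of the genes raised by dissociation, 3 of 11 rose, and their array means were 6.89 to 7.43 in non-carriers and 7.61 to 7.89 in carriers, without overlap. 2 endothelial genes rose and 1 fell of 10, 1 stellate gene rose and 1 fell of 12, and 1 of 11 macrophage genes fell. Among genes of visceral endoderm, which also secretes plasma proteins, 1 of 6 fell. The part of these shifts in the fall of the plasma protein genes was not tested.

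At E14.5 the same contrast gave few calls and no falls. Of the 33 genes, 5 were higher in GATA1s carriers and 0 lower (limma, adjusted p under 0.05), and 5.87% of all genes tested were called higher and 7.53% lower. At an unadjusted p under 0.05, 9 of the 33 genes were higher and 0 lower, where 11.1% of all genes were higher and 15.3% lower. The median change was 0.33, beside -0.01 over all genes, and all 33 changes were positive, except that Alb was negative at -0.03 after a further quantile normalization and that 6 uncalled changes crossed 0 when 1 array or another was left out. Ranges of carriers and non-carriers were apart for 3 of 35 genes (Apoa2, F10 and Serpina1c, all above), where 5.86% of all genes were apart in that direction and 11.1% in the other.

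**Figure D4:**
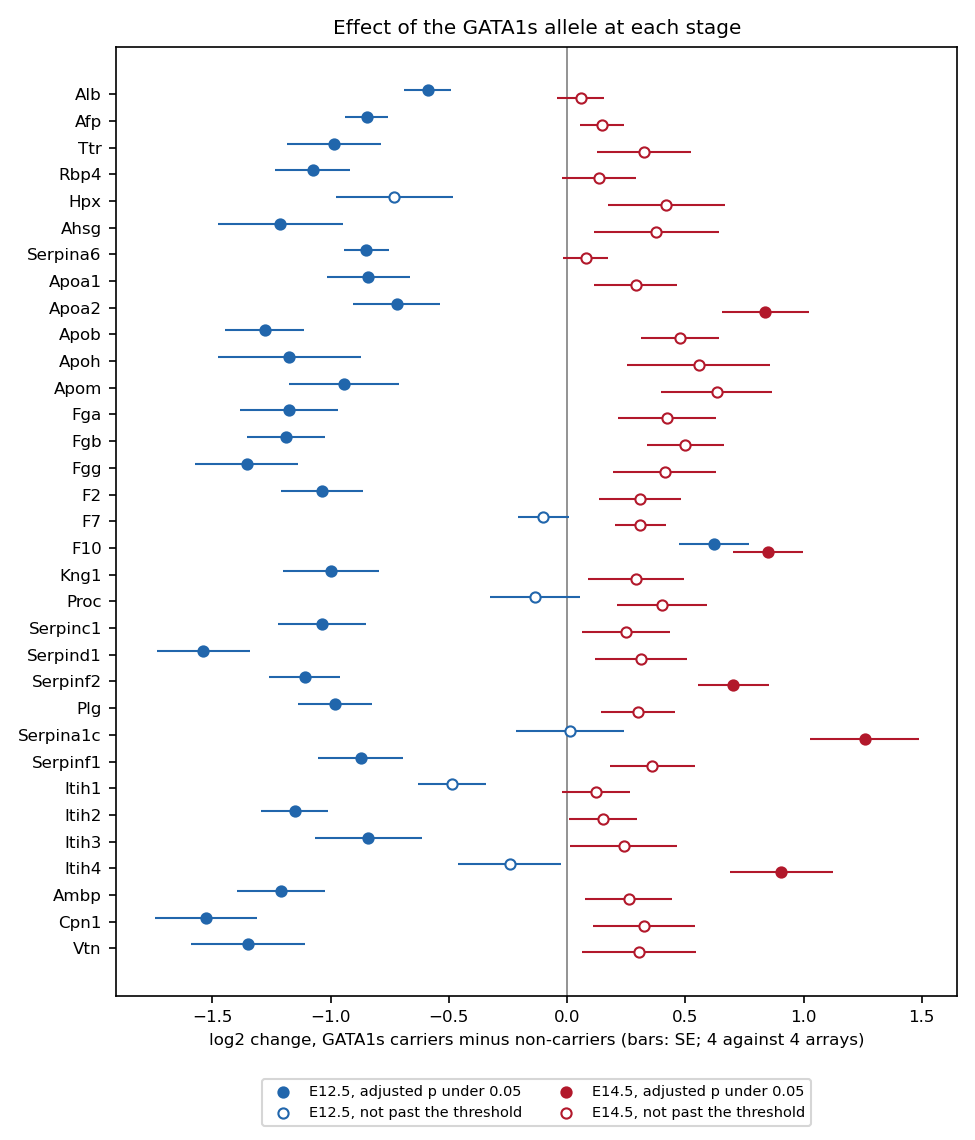
Log2 change in GATA1s carriers against non-carriers (horizontal axis) for the 33 tested plasma protein genes at E12.5 (blue) and E14.5 (red), 4 arrays against 4 at each stage, with bars for 1 SE and filled points for an adjusted p under 0.05. The blue points run from -1.54 (Serpind1) to 0.62 (F10) and the red points from 0.06 (Alb) to 1.26 (Serpina1c), and F10 lies right of 0 at both stages.

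Serpina1c rose most: its signal, given above, was lowest in the ERG pair and highest in the GATA1s pair, and the ERG/GATA1s array labelled male was only just above the highest non-carrier. The rise was 1.26 ± 0.23 (2.39-fold, adjusted p = 0.00321). A fit without the E14.5 WT group, chosen after seeing the data, set ERG/GATA1s against ERG only, so the GATA1s arrays also left the contrast. It gave 0.93 with an adjusted p of 0.0951. Serpina1d, a paralog held in the list of other plasma proteins, rose by 1.51 ± 0.14. F10 was 7.03 and 7.83 (WT), 6.99 and 7.17 (ERG), 8.20 and 8.35 (GATA1s) and 7.98 and 7.89 (ERG/GATA1s), with all carriers above all non-carriers although the WT array labelled male came close. It rose by 0.85 ± 0.15 (1.8-fold, adjusted p = 0.00252), so F10 was higher in carriers at both stages. Apoa2, the second main protein of high-density lipoprotein, was 10.54 and 11.56 (WT), 10.71 and 11.04 (ERG), 12.01 and 11.88 (GATA1s) and 11.65 and 11.66 (ERG/GATA1s), with the carriers apart from the non-carriers, and rose by 0.84 ± 0.18 (adjusted p = 0.00955).

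Itih4 and Serpinf2 passed with overlapping ranges. Itih4 was 7.59 and 8.31 (WT), 7.01 and 7.05 (ERG), 8.59 and 8.53 (GATA1s) and 8.74 and 7.72 (ERG/GATA1s), where the WT array labelled male exceeded the ERG/GATA1s array labelled male, and rose by 0.91 ± 0.22 (adjusted p = 0.0153). Its call was lost without any of 5 arrays (adjusted p up to 0.0793). Serpinf2 was 9.87 and 10.72 (WT), 9.71 and 10.06 (ERG), 11.16 and 11.02 (GATA1s) and 10.47 and 10.52 (ERG/GATA1s), where again the WT array labelled male lay among the carriers, and rose by 0.70 ± 0.15 (adjusted p = 0.00814). Without the 3 arrays with sex markers against their label, F10 and Serpina1c alone of these 5 were called, and the median over the 33 genes was 0.24.

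The genes with the largest falls at E12.5 did not pass here. Serpind1 was 9.09 and 9.99 (WT), 9.26 and 9.50 (ERG), 10.01 and 10.10 (GATA1s) and 9.55 and 9.43 (ERG/GATA1s), and the WT array labelled male lay within the carriers. The change was 0.31 ± 0.20 (adjusted p = 0.352, 95% interval -0.11 to 0.73). Fgg was 9.37 and 10.29 (WT), 9.67 and 9.76 (ERG), 10.36 and 10.45 (GATA1s) and 10.38 and 9.55 (ERG/GATA1s) and Vtn 9.36 and 10.62 (WT), 9.88 and 10.04 (ERG), 10.52 and 10.82 (GATA1s) and 10.07 and 9.70 (ERG/GATA1s), both with overlapping ranges and changes of 0.41 ± 0.22 and 0.30 ± 0.24. Alb was 12.19 and 12.14 (WT), 11.98 and 12.07 (ERG), 12.22 and 12.15 (GATA1s) and 12.13 and 12.11 (ERG/GATA1s), with overlapping ranges and a change of 0.06 ± 0.10 (adjusted p = 0.817). For Cpn1, Apob, Kng1, Apoa1 and Itih2 the changes were 0.33, 0.48, 0.29, 0.29 and 0.15, and none passed.

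The count at E14.5 hung on the WT array labelled male, and the median on both WT arrays. Dropping the WT array labelled female lowered the count no further than dropping either ERG array or the female-labelled GATA1s or ERG/GATA1s array. Without the WT array labelled male, which was the higher of its pair, 24 of the 33 genes were called higher, where 8.27% of all genes were, and the median was 0.61. Without the WT array labelled female the count was 4 (3.88% of all genes called higher) and the median 0.08, the lowest of all 16 fits that left out 1 array. With arrays weighted by their quality 9 genes were called, all higher, where 8.78% of all genes were. The 2 WT arrays also differed in other lists: the array labelled female had the lower mean for hepatoblast genes (5.85 against 6.78) and stellate genes (6.06 against 6.73) and the higher one for red cell genes (10.81 against 10.41). The part of this gap in the result was not tested.

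Beside the plasma protein genes, genes of other lists rose at E14.5, and which cells gave their signal was not tested. Of 58 other plasma protein genes, 9 rose and 0 fell, including Serpina1d, the anticoagulant cofactor Pros1 (0.82 ± 0.17), the pentraxin Apcs (0.86 ± 0.18) and clotting factor F5 (0.76 ± 0.18). Of 16 transcription factors 4 rose: Cebpa (0.71 ± 0.14), Nr5a2 (0.41 ± 0.09), Prox1 (0.66 ± 0.15) and Onecut2 (0.45 ± 0.11). Metabolic enzymes rose in 9 of 22, led by Cps1, which feeds ammonia into the urea cycle, at 2.66 ± 0.18 (adjusted p = 3e-06), with Gnmt (0.71 ± 0.12), Asl (0.63 ± 0.12) and Fbp1 (0.68 ± 0.15) next. Red cell genes fell in 11 of 12, with array means of 10.30 to 10.81 in non-carriers and 9.40 to 10.27 in carriers. Megakaryocyte and platelet genes rose in 9 of 11, from 7.24 to 7.64 in non-carriers to 8.36 to 8.99 in carriers, and genes raised by dissociation rose in 9 of 11, from 5.38 to 5.91 to 6.62 to 7.10. The part of these lists in the result was not tested.

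**Figure D5:**
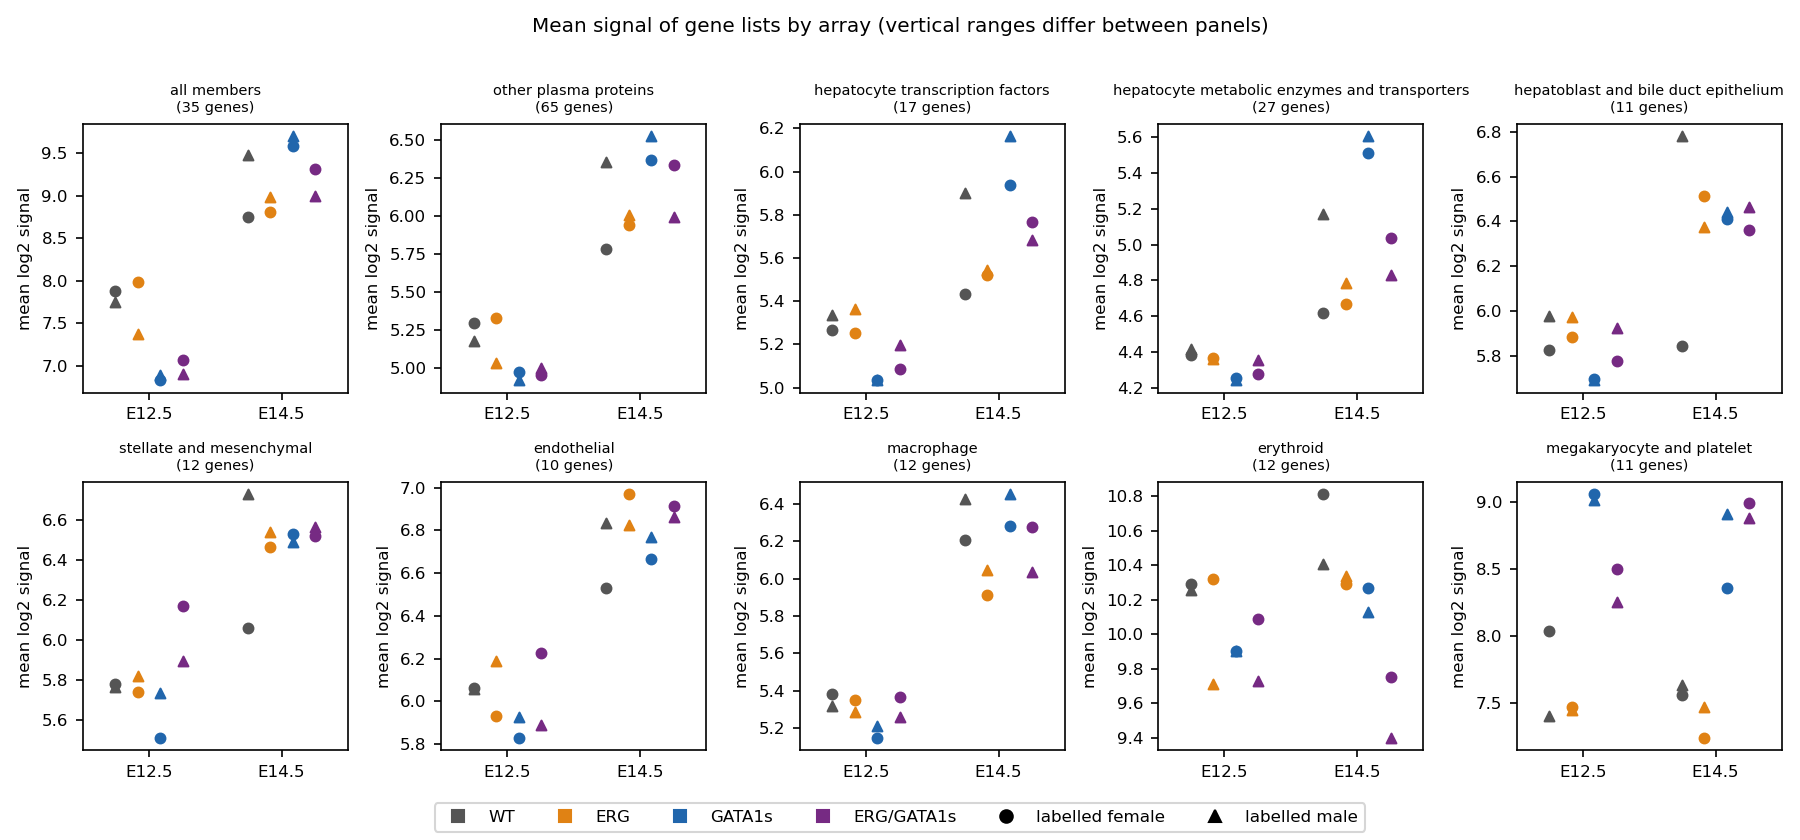
Mean log2 signal (vertical axis, range set per panel) of 10 gene lists on each of the 16 arrays, at E12.5 (left in each panel) and E14.5 (right), coloured by genotype, with circles for arrays labelled female and triangles for male. The plasma protein genes ("all members") average 6.83 to 7.07 in E12.5 GATA1s carriers and 7.37 to 7.98 in E12.5 non-carriers, and megakaryocyte genes are higher in carriers at both stages.

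The GATA1s effect was then compared between the stages by its interaction term. Carriers had female markers on every array at E12.5 and mostly male markers at E14.5. Stage, sex and the number of copies of the X-linked allele therefore cannot be told apart in this comparison. The GATA1s effect was higher at E14.5 than at E12.5 for 24 of the 33 genes and lower for 0 (limma, adjusted p under 0.05), where 1.6% of all genes tested were called higher and 0.64% lower. The median difference of effects was 1.29, beside -0.04 over all genes, and all 33 were positive. Cpn1 differed most, with an effect of -1.53 at E12.5 and 0.33 at E14.5 and a difference of 1.85 ± 0.31 (adjusted p = 0.00732). Serpind1 followed at 1.85 ± 0.28, Serpinf2 at 1.81 ± 0.21 (adjusted p = 0.00184), Fgg at 1.77 ± 0.31 and Apob at 1.75 ± 0.24. All 4 measured apolipoproteins other than Apoh were called, as were the 3 fibrinogen genes.

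The 9 genes that did not pass were Hpx, Apoh, F7, F10, Proc, Serpina1c, Itih1, Itih3 and Itih4. For F10, the effects at the stages were 0.62 and 0.85 and their difference 0.23 ± 0.21 (adjusted p = 0.656, 95% interval -0.22 to 0.68). Serpina1c had a difference of 1.25 ± 0.32 that did not pass (adjusted p = 0.065), though its effect was called at E14.5 and not at E12.5. In the other hepatocyte lists, the difference was called for 12 of 58 plasma proteins, 5 of 16 transcription factors (1.14 for Onecut2, 1.38 for Prox1, 1.14 for Hnf4a, 0.65 for Nr5a2) and 4 of 22 enzymes and transporters, all positive.

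Leaving out 1 array gave between 15 and 29 calls for the difference, where 150 to 974 of all genes were called. Among the plasma protein genes, 15 calls were kept in each case. The lowest count came without any of 6 arrays: the E12.5 WT array labelled female, both E12.5 GATA1s arrays, the E14.5 ERG array labelled female, the E14.5 GATA1s array labelled male and the array labelled female of E14.5 ERG/GATA1s. Without the 3 arrays with sex markers against their label it was 0 of 33 by limma (3 of all genes), with a median of 1.18 and 27 of 33 genes (1737 of all) at an unadjusted p under 0.05. The count was 5 in the fit without the E12.5 ERG/GATA1s group, which compared GATA1s with WT only at both stages.

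The ERG transgene was the other factor of the design. At E12.5 limma called 0 of the 33 genes in ERG carriers against non-carriers, and 0% of all genes. At an unadjusted p under 0.05 there was 1, Afp (0.26 ± 0.09, adjusted p = 0.939), and 825 genes in all. The changes ran from -0.32 to 0.26 with a median of 0.02, and the ranges of the groups overlapped for all 35 measured genes, where 0.375% of all genes lay apart above and 0.88% below. Among the 16 fits that left out 1 array the median ran from -0.16 to 0.18.

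At E14.5, 1 of the 33 genes was lower in ERG carriers and 0 higher, where 2.01% of all genes were called lower and 2.2% higher. That gene was Itih1, with a signal of 6.99 and 7.21 (WT), 6.35 and 6.51 (ERG), 7.61 and 7.40 (GATA1s) and 6.47 and 6.07 (ERG/GATA1s), and each ERG carrier lay below each non-carrier. The fall was 0.95 ± 0.14 (1.94-fold, adjusted p = 0.00169), and it kept its call without any 1 array (adjusted p up to 0.0166). All 33 changes were negative, also after centring arrays on their medians and after a further quantile normalization, with a median of -0.33 beside -0.01 over all genes, and 12 had an unadjusted p under 0.05 (7.21% of all genes were lower at that level). Those signs did not all hold, since 8 of the 33 changes, among them those of Apom, Hpx and Ttr, were positive when 1 array or another was left out. Ranges were apart for 2 of 35 genes (Itih1 and Alb, both below), against 2.39% of all genes below and 3.25% above.

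After Itih1 the largest changes did not pass. Serpina1c, with the values given for E14.5 above, gave -0.75 ± 0.23 (adjusted p = 0.0984), with the ERG arrays lowest. Itih3 was 9.04 and 9.47 (WT), 8.52 and 8.87 (ERG), 9.68 and 9.60 (GATA1s) and 9.37 and 8.21 (ERG/GATA1s), where the ERG/GATA1s pair was 1.16 apart, and gave -0.70 ± 0.23 (adjusted p = 0.119). Itih4 gave -0.62 ± 0.22 (adjusted p = 0.162). Proc was 6.68 and 7.54 (WT), 6.65 and 6.96 (ERG), 7.71 and 7.85 (GATA1s) and 7.19 and 6.69 (ERG/GATA1s), with overlapping ranges, and gave -0.57 ± 0.19 (adjusted p = 0.139). Of the 5 largest changes, 3 were those of the adjacent heavy chain genes Itih1, Itih3 and Itih4. Itih2, which is not adjacent to them, gave -0.46 ± 0.14 (adjusted p = 0.108).

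When the WT array labelled female was dropped, 14 of the 33 genes were called lower in ERG carriers at E14.5, where 2.83% of all genes were, and the median was -0.57. Without the WT array labelled male, 1 gene was called and the median was -0.08. The count was 3 without either E12.5 ERG array or without the array labelled female of E14.5 ERG/GATA1s. Over the 16 fits that left out 1 array, 237 to 777 of all genes were called in either direction. Weighting arrays by quality gave 6 (3.4% of all genes called lower). A fit without the E14.5 WT group, which set ERG/GATA1s against GATA1s only, gave 2 with a median of -0.43. Of the other hepatocyte lists, 6 of 22 enzymes and transporters fell in ERG carriers at this stage, including Ttpa, which loads vitamin E (-1.07 ± 0.15), Bhmt (-1.20 ± 0.22), Cps1 (-0.89 ± 0.18) and Hal (-0.57 ± 0.12). Of the 58 other plasma proteins 5 fell and 2 rose, the rises being Igfbp1 (1.84 ± 0.31) and Ecm1 (1.15 ± 0.20). Nr5a2 was the single transcription factor of 16 to fall (-0.47 ± 0.09). Red cell genes fell in 5 of 12 and macrophage genes in 3 of 11, and their part in the result was not tested.

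Whether the 2 alleles together did other than their sum was read from the ERG by GATA1s interaction. It was called for 0 of the 33 genes by limma at E12.5 (0% of all genes) and for 0 at E14.5 (0.0984% of all genes). At an unadjusted p under 0.05 there was 1 gene at E12.5, F2 (0.80 ± 0.35, adjusted p = 0.84), and 0 at E14.5. The medians were 0.26 at E12.5 and -0.29 at E14.5, and neither sign held when arrays were left out: the median ran from -0.11 to 0.62 at E12.5 and from -0.74 to 0.17 at E14.5. At E14.5, 17 of the 33 genes, and 1791 of all genes, had an unadjusted p under 0.05 without the WT array labelled male.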

How the data were processed

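Total RNA of 16 fetal liver suspensions was hybridised to 1-colour Affymetrix whole-transcript arrays, 1 per sample. The values used are log2 signals that the authors made with RMA (no version given, per the submitters' processing notes) and deposited per probe set, so they are already background-corrected and normalized between arrays; scanner files and probe sequences were not used here. Of 28270 probe sets, 21780 carry 1 symbol in GEO's platform annotation, which can be old, 1617 several and 4873 none. Each gene was read from its brightest probe set by mean signal. The tests took in genes brighter than 3.74, the 30th percentile of the deposited values, on at least 2 arrays (16258 genes, of which 15742 carry 1 symbol). limma 3.58.1 in R 4.3.3 fitted all 8 groups with the labelled sex as a term (lmFit, eBayes, 7 residual degrees of freedom), contrasts were taken over group means, and p-values were adjusted over all genes by Benjamini-Hochberg. Every adjusted p and SE printed comes from this fit unless an alternative is named, and "called", "rose" and "fell" mean an adjusted p under 0.05. Intervals are 95% intervals of that fit.

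The 37 members, the other gene lists and the tests were chosen with earlier results of these data known, so no list gives independent support. Values on every array are given for the brightest gene of each of 6 roles and for the 5 largest changes in each main contrast, and from other lists up to 4 genes of smallest p, with exceptions named. The fit was tested on simulated data with 100 genes changed by each size among 16258. At E12.5 it called 94% of 2-fold and 61% of 1.5-fold changes in GATA1s carriers, at E14.5 94% and 66%. For the difference of the GATA1s effect between stages it called 79% and 26%, and for ERG carriers at E14.5 98% and 59%. These percentages were not worked out for the plasma protein genes, which moved together between arrays of the same group. Recovery at the scatter of those genes was not tested. Alternatives were the dim filter, further quantile normalization, median centring, no sex term, fewer arrays in the fit, array weights, another variance prior, the mean of probe sets, and leaving out arrays. Promoters and gene order come from RefSeq tables of GRCm38.p6, where Serpina6, Proc, Plg, Kng1 and Ttr had no promoter entry.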

Additional observations from a re-analysis of the deposited data

Results flagged for a closer look

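The GATA1s effect differed between E12.5 and E14.5 by its interaction term (limma, adjusted p under 0.05) for 24 of the 33 tested plasma protein genes, all with the higher effect at E14.5. The log2 difference of effects was 1.59 for Ahsg, 1.31 for Ttr, 1.21 for Rbp4, 0.995 for Afp, 0.93 for Serpina6 and 0.65 for Alb among transport proteins. It was 1.76 for Apob, 1.58 for Apom, 1.56 for Apoa2 and 1.13 for Apoa1. Among clotting factors it was 1.77 for Fgg, 1.69 for Fgb, 1.598 for Fga, 1.35 for F2 and 1.29 for Kng1. Genes of clotting control gave 1.85 for Serpind1, 1.81 for Serpinf2, 1.28 for Serpinc1 and 1.28 for Plg. The remaining values were 1.85 for Cpn1, 1.65 for Vtn, 1.47 for Ambp, 1.31 for Itih2 and 1.23 for Serpinf1. Groups of 2 arrays are too small to test for a stray sample. Carriers had female markers at E12.5 and mostly male markers at E14.5, so stage and sex cannot be told apart in these differences.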

How the results depend on the processing

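Of the alternative counts of called genes, 233 stayed within 1.5 times the reported count and 22 did not. That total includes ERG carriers at E12.5 and both ERG by GATA1s interactions, whose counts were 0 in every alternative. It also includes the stage comparisons, which kept 29 to 33 calls when 1 array was left out. The total is therefore not a measure of how steady the other comparisons were. With arrays weighted by quality, 9 genes were called in GATA1s carriers at E14.5 and 6 in ERG carriers at E14.5, and a trended, robust variance prior gave 2 in the latter. Without the 3 arrays with sex markers against their label, the counts were 0 for GATA1s carriers at E12.5, 2 for them at E14.5 and 0 for the difference between stages, and several groups then hold 1 array that is assumed to vary like the others. Without the E12.5 ERG/GATA1s group, GATA1s was set against WT only, and the counts were 15 at E12.5 and 5 for the difference. Without the E14.5 WT group, chosen after seeing the data, ERG/GATA1s was set against GATA1s only, and the count was 2 for ERG carriers at E14.5. Leaving out each array in turn gave 17 to 29 calls for GATA1s carriers at E12.5, 4 to 24 at E14.5, 15 to 29 for the difference, and 1 to 14 for ERG carriers at E14.5, with the arrays named above. Over all genes the calls ran, in that order, from 317 to 4292, 899 to 2899, 150 to 974 and 237 to 777. In non-carriers the rise between stages was called for 29 to 33 genes when 1 array was left out. Signs of uncalled changes also turned. When 1 array or another was left out, 6 changes in GATA1s carriers at E14.5 crossed 0: Alb from -0.0064 to 0.12, Itih2 from -0.012 to 0.32, Itih3 from -0.013 to 0.49, Rbp4 from -0.043 to 0.31, Serpinc1 from -0.026 to 0.52 and Vtn from -0.056 to 0.66. So did 2 in GATA1s carriers at E12.5 (Proc and Serpina1c) and 8 in ERG carriers at E14.5. Alb was -0.031 after further quantile normalization. Without the E14.5 WT group, where the GATA1s contrast was ERG/GATA1s against ERG only, Itih1 was -0.16, Rbp4 -0.055, Serpina6 -0.045, Serpinc1 -0.075 and Vtn -0.075. The cause of these shifts was not tested. Median centring moved the median of all genes by at most 0.05. With 2 arrays a group, F9 and Hrg below the dim level and no scanner files, small changes and levels near background are not resolved. No paired analysis was possible because the labels give no replicate numbers. The sex term of the fit follows the label, which the markers opposed on 3 arrays, so it does not fully account for sex.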
